A study of Mus musculus with 8 samples.

Results

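Gene deserts are long stretches of a chromosome without protein-coding genes. The accessible regions described here are those on the 19 autosomes that lay more than 500 kb from the nearest outer limit of any protein-coding gene and touched none. This rule selected 1940 of 74156 autosomal regions (2.62%, 95% Wilson interval 2.50 to 2.73%) and of 76872 in all. They come from ATAC-seq, an assay in which the Tn5 transposase cuts open chromatin, on induced pluripotent stem cells (iPSCs) of the mouse, from 1 clone with the FUCCI2 cell cycle reporters. All groups were grown over irradiated feeder cells in KO-DMEM with FBS, LIF and 2i, a pair of inhibitors of the kinases MEK and GSK3. Of the 8 libraries, 2 came from cells held in mitosis by nocodazole (200 ng/ml, 6 hours, then shake-off), 2 each from such cells released for 1 or 3 hours, and 2 from untreated asynchronous cells. Each library started from 50000 cells, and the labels do not say whether the pairs came from separate cultures.

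The deposited list is a single one for the whole series and holds only a chromosome, a start and an end (mm10). No region can be traced to a library, the depth is unknown, and no change between mitotic, released and asynchronous cells can be given. Values therefore have no spread between replicates, and intervals cover counting error only. No test was made between classes of regions, because regions of 1 list are not replicates. Among the 1940 regions, 92 lay in 3 deserts that hold antigen receptor gene segments, which the gene table lists under types of their own and not as protein-coding genes. The main values are given with and without these 92.

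As background, accessible regions mark promoters, enhancers and sites bound by architectural proteins. Some gene deserts hold enhancers that act over long distances on a developmental gene at their border, and others have no known regulatory role. The genes inside deserts are mostly long noncoding RNAs (lncRNAs), pseudogenes, which are disabled copies of genes, and small RNA genes such as those for snoRNAs and microRNAs.

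Few desert regions lay at an annotated promoter. Those that did touched a window around the annotated start of a gene, but at Gm39613 and 4930559C10Rik the region did not reach the start itself. The list does not show whether such a gene is transcribed in these cells. RefSeq promoter windows (GRCm38.p6, from 250 bases before to 50 after a start) numbered 231 in deserts, for 206 genes. A desert region touched 10 of them (4.33%, Wilson interval 2.37 to 7.78%), belonging to 9 genes, all lncRNAs. For comparison, 6.23% of the 1783 windows at 100 to 500 kb from a coding gene and 42.2% of all 31396 autosomal windows were touched by a region. The following 5 windows are shown because they include both that were covered whole, the best covered of the others, a pair with a shared sequence and the window richest in CpG. Capitals mark the bases inside the accessible region.
Gm31415, chr3:49062087-49062386, plus strand: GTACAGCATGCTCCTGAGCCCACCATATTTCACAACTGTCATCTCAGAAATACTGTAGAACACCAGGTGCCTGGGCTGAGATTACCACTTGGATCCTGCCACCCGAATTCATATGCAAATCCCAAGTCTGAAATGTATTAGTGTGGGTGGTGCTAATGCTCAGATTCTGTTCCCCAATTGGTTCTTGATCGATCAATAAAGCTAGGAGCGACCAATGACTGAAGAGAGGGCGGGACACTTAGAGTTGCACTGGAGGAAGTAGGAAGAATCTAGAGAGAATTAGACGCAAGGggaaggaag
C330004P14Rik, chr10:15791527-15791826, plus strand: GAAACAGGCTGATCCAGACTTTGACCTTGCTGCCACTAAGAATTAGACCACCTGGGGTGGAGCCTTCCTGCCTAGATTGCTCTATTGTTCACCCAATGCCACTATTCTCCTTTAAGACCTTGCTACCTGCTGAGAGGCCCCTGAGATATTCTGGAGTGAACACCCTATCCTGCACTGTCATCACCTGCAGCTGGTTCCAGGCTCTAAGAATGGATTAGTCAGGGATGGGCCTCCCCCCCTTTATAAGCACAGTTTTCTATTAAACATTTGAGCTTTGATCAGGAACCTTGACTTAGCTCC
1190028D05Rik, chr8:52356361-52356660, plus strand: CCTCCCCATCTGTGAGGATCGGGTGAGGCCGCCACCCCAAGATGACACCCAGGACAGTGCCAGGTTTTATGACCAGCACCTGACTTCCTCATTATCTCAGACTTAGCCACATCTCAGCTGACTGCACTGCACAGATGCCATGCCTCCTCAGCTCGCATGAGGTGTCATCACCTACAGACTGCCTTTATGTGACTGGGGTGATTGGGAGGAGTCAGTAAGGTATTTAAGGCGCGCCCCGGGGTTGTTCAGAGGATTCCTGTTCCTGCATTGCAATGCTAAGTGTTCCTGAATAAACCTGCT
Gm46220, chr10:38059091-38059390, plus strand: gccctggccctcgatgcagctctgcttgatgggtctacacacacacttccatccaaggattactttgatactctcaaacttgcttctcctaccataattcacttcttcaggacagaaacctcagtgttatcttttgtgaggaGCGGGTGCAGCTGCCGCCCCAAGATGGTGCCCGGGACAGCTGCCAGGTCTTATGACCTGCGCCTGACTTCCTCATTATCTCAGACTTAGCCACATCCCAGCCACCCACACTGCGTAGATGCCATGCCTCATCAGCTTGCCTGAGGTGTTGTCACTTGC
Gm32810, chr1:112416869-112417168, minus strand: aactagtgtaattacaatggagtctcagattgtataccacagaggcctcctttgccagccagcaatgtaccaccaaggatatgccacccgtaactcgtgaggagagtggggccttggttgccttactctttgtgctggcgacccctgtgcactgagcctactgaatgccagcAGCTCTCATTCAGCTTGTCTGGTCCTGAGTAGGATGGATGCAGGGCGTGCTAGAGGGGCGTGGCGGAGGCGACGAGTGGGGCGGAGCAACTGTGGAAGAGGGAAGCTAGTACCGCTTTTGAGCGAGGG

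The accessible region covered all 300 bases of the windows of C330004P14Rik and 1190028D05Rik and 291 bases of that of Gm31415. It covered 158 bases at Gm46220 and 128 bases at Gm32810, in both cases on the side that holds the start of the transcript. The windows of 1190028D05Rik, on chromosome 8, and Gm46220, on chromosome 10, share an exact run of 35 bases inside their accessible parts, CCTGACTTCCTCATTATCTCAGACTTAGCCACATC. Among all autosomal windows this run occurred at 3 genes, and at 2 of them, the pair shown, a region touched the window. No other pair among the 9 genes shared more than 11 bases, but runs of 20 bases were also shared with windows of other autosomal genes, for example with 23 genes by 4930559C10Rik and with 4 by C330004P14Rik. No repeat annotation was used here, so whether the shared runs are repeats was not tested. This comparison was chosen after the sequences were seen.

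The touched windows had a median GC content of 48.8% and a median of 4.5 CpG sites. These medians were 42% and 2 in the 221 desert windows that were not touched. They were 48.3% and 4 in all autosomal lncRNA windows, close to the touched ones, and 53% and 7 in all autosomal windows. The window of Gm32810 had the most of the 10, with 11 CpG sites and 56% GC, and that of C330004P14Rik held none. The octamer ATTTGCAT, the sequence read by POU factors such as Oct4, was searched on both strands. It was found in both overlapping windows of Gm31415 (2 of the 10 windows, 1 gene) and in 1.75% of all autosomal windows. The AP-1 sequence TGANTCA was in none of the 10 and in 7.84% of all windows, and the core CTCF motif in none and in 0.666%. A match is a description of the letters, not evidence of binding.

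Accessible regions were sparse in deserts. Among regions that overlap no coding gene, the density of narrow ones differed more by distance from genes than that of wide ones. Sequence beyond 500 kb of any coding gene made up 201 Mb, or 8.38% of the autosomal span of 2403 Mb, and held 9.63 regions per Mb (95% Poisson interval 9.20 to 10.1), or 9.38 with antigen receptor segments counted as genes. The autosomal average was 30.9 per Mb. Within 10 kb of a coding gene, intergenic sequence carried 43.3 regions per Mb, and the density fell in each band with distance, to 23.0 at 50 to 100 kb, 16.2 at 100 to 250 kb and 12.3 at 250 to 500 kb. Beyond 500 kb the density was nearly level, with 9.85 per Mb at 500 to 750 kb, 9.90 at 750 to 1000 kb, 8.83 at 1000 to 1500 kb and 10.02 beyond 1500 kb, and the intervals of these 4 bands overlapped.

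Regions under 500 bp went from 36.7 per Mb within 10 kb of a gene to 7.22 per Mb in deserts (interval 6.86 to 7.60). Regions of 500 bp or more went from 6.52 (6.20 to 6.85) to 2.41 per Mb (2.20 to 2.63). Regions of 1000 bp or more, a limit chosen after the widths were seen, went from 0.534 (0.445 to 0.636) to 0.352 per Mb (0.275 to 0.444). Their density was 0.331 per Mb (0.242 to 0.443) at 500 to 1000 kb, and 0.396 per Mb (0.259 to 0.580) beyond 1000 kb, where the interval overlaps that of the band nearest to genes. Their share of all regions accordingly was 1.24% within 10 kb, 2.08% at 50 to 100 kb, 3.35% at 250 to 500 kb, 3.36% at 500 to 1000 kb and 4.33% (2.97 to 6.27%) beyond 1000 kb. It was 3.66% over all deserts (2.91 to 4.59%), and 3.79% without the antigen receptor stretches. Over all autosomal regions, those at gene ends included, it was 3.74%, which lies inside the desert interval. The share was larger at gene ends than in deserts. Deserts were thus above intergenic regions near genes, but not above the atlas as a whole. The share in deserts was above that of intergenic regions within 100 kb in 16 of 19 autosomes.

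**Figure D1:**
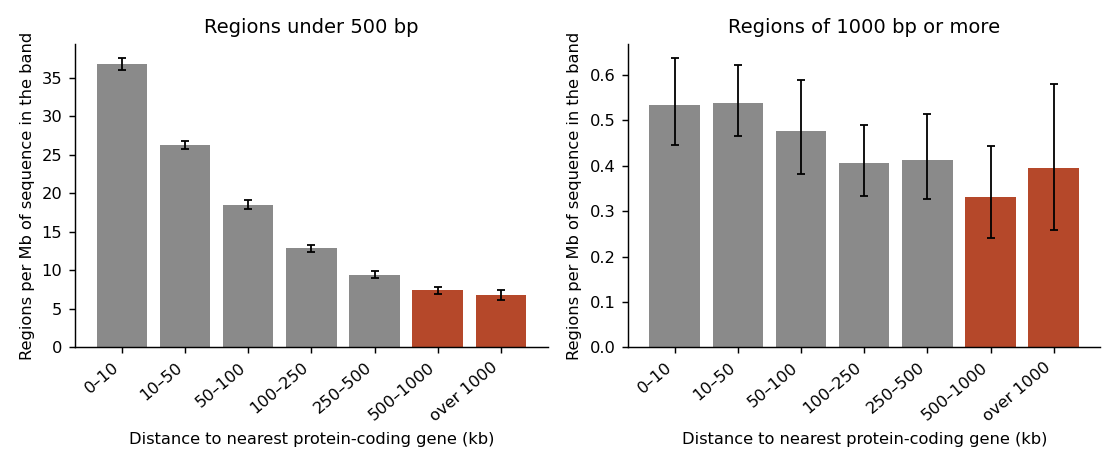
Regions per Mb of autosomal intergenic sequence (vertical axes) by distance to the nearest protein-coding gene in kb (horizontal axes), for regions under 500 bp on the left and of 1000 bp or more on the right. Bars are densities, error bars 95% Poisson intervals, and red bars the deserts. Regions that overlap a coding gene are left out. The left bars fall from 36.7 to 6.81 per Mb while the right bars go from 0.534 to 0.396 with overlapping intervals, the bar at 500 to 1000 kb being lower, at 0.331 (0.242 to 0.443).

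The lower density of deserts was found on every autosome. Over the 19 autosomes the desert density was 9.83 ± 1.498 regions per Mb (mean ± SD), against 14.6 ± 1.89 at 100 to 500 kb from a coding gene, and the desert value was the lower in 19 of 19. It ranged from 7.23 on chromosome 8 to 13.1 on chromosome 13. The most desert regions were on chromosome 3 (184), chromosome 1 (173) and chromosome 12 (169), and the fewest on chromosome 19 (14), where only 1.51 Mb lay beyond 500 kb. Deserts made up 13.3% of chromosome 14 and 2.59% of chromosome 19.

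The desert sequence formed 249 separate stretches, of which 214 held at least 1 region, with a median of 6. The 35 empty stretches were short, with a median of 65.6 kb and a longest of 268 kb beyond the 500 kb limit. All 72 stretches with more than 1 Mb beyond that limit held regions, at a median of 9.11 per Mb (quartiles 6.77 and 11.6). Across the 249 stretches the number of regions rose with the length (Spearman rho 0.890, a description across stretches of 1 atlas). Among the 72 long ones the density had little relation to the length (rho -0.0973).

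The 27 stretches with 20 or more regions held 727 of the 1940 (37.5%) and made up 32.4% of desert sequence. The most, 42, lay between Celf4, an RNA-binding protein gene, and Pik3c3, a lipid kinase gene, which are 4511 kb apart on chromosome 18. Leaving aside antigen receptor loci, next came the stretch from Zeb2, a zinc finger transcription factor gene, to Acvr2a, an activin receptor gene, with 38 regions at 14.1 per Mb. The stretches from Cntnap5b to Cdh20 and from Pcdh7 to G6pd2 held 35 each, those from Hace1 to Grik2 32, from Dsel to Cntnap5a 30, and those from Olfm4 to Pcdh17, from Slitrk5 to Gpc5 and from Snx16 to Ralyl 27 each. The longest stretch, from Pcdh20 to Pcdh9 on chromosome 14, had only 24 regions over 3542 kb (6.78 per Mb).

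Long stretches differed in density. Outside the antigen receptor loci, the densest with over 1 Mb lay between Cobl, a regulator of actin filaments, and Pom121l12 on chromosome 11, with 25 regions in 1134 kb (22.0 per Mb, a median gap of 4.61 kb and 1.00% of the sequence covered). The sparsest, between Klhl29 and Apob, the gene of the main lipoprotein of low-density particles, had 5 regions in 1602 kb (3.12 per Mb). At the border of Pou3f2, a POU factor of neural cells, 16 regions gave 15.9 per Mb, and beside Lrfn5, a synaptic adhesion gene, 24 gave 14.9 per Mb.

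**Figure D2:**
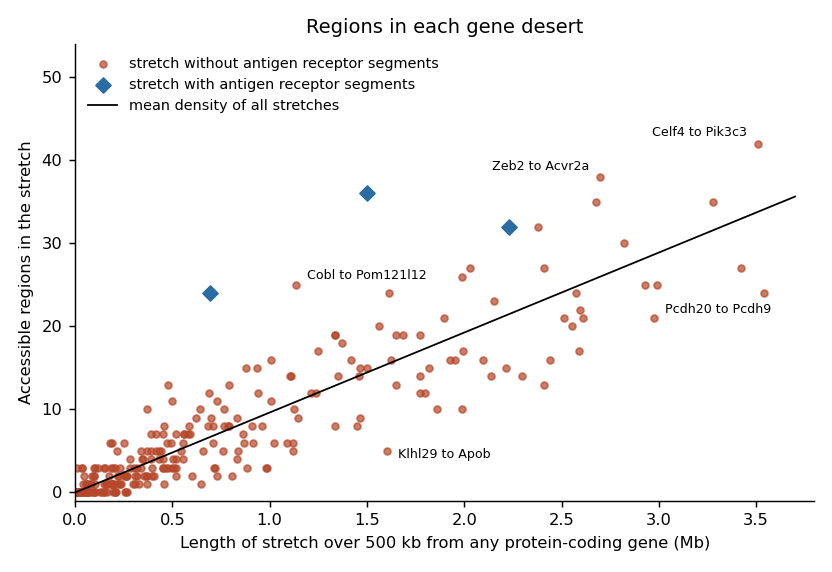
Each point is 1 of 249 stretches, with its length beyond 500 kb of any coding gene (horizontal axis, Mb) and its number of accessible regions (vertical axis). Diamonds are the 3 stretches with antigen receptor gene segments, which lie above the line of the mean density, 9.63 per Mb. Cobl to Pom121l12 lies far above that line and Klhl29 to Apob far below it.

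The 397 coding genes that bordered stretches with a region included many of cell adhesion and synapse families. By a set of symbol starts chosen for these families, 56 of 397 (14.1%, Wilson interval 11.02 to 17.9%) were counted. This was against 341 of all 20560 autosomal coding genes (1.66%), and 59 of 214 stretches had at least 1 such border. The symbol starts are broad and also take in channel genes, 5 of the 56 being potassium channel genes. They also miss adhesion genes at borders, such as Lrfn5 and Alcam, so the share is that of the symbol starts only. The list was chosen with earlier results of these data known, so its share is a description, and no test was made. Borders are set by the positions of genes, and 214 of all 249 stretches held a region. The share thus describes genes beside deserts, not the accessible regions in them. Borders of the empty stretches were not counted for comparison.

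Cadherins, which hold neighbouring cells together, bordered 10 stretches through 11 of their 28 genes with that symbol, among them Cdh2, Cdh6, Cdh8 and Cdh9. These stretches held 142 regions at 8.71 per Mb. Protocadherins, a related family, bordered 8 stretches through Pcdh7, Pcdh9, Pcdh10, Pcdh17, Pcdh18 and Pcdh20, with 154 regions at 8.02 per Mb. All 3 teneurin genes on autosomes, Tenm2, Tenm3 and Tenm4, which encode adhesion proteins of nerve cells, bordered stretches, with 67 regions at 9.03 per Mb. Slitrk1, Slitrk5 and Slitrk6, of 4 autosomal Slitrk genes for synaptic proteins, bordered 43 regions at 8.57 per Mb, and Cntn5, Cntnap2, Cntnap5a and Cntnap5b bordered 91 at 11.3 per Mb. Over all 9 families counted, the density ran from 7.42 per Mb (Eph receptors, 40 regions in 4 stretches) to 11.3 per Mb, on both sides of the 9.63 per Mb of all deserts.

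Developmental transcription factor genes made up 14 of the 397 borders (3.53%, interval 2.11 to 5.83%), against 1.01% of coding genes. This share, too, describes genes beside deserts and not the accessible regions. One of the 14, Lmo7, was caught by its symbol start and is not a transcription factor. Zeb2 bordered 38 regions, Nr2f1, an orphan nuclear receptor, 19, Pou3f2 16, Gata3 14, Bcl11a 12, Mef2c 8 and Zfhx4 7. Sox2, a core factor of pluripotent cells, bordered a stretch of 102 kb with 3 regions of median width 76 bp, the widest 139 bp. The 8 regions of the Mef2c stretch had a median width of 567 bp. Of 1469 olfactory, vomeronasal and trace amine receptor genes (7.14% of coding genes), none bordered a stretch with a region, which allows a share of up to 0.958% of the borders by the Wilson interval.

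Desert regions were as wide as, or slightly wider than, other intergenic regions. Their median width was 287 bp (95% interval of the median 274 to 300, quartiles 158 and 498.5, range 73 to 1802 bp), and 291 bp without the antigen receptor stretches. It was 266 bp (258 to 273) at 100 to 500 kb from a coding gene, 244 bp (241 to 247) nearer to genes and away from their ends, and 526 bp (516 to 533) at gene ends. Over all autosomal regions it was 280 bp (278 to 283). By autosome the median in deserts was above that at 100 to 500 kb in 16 of 19, equal in 1 and below in the others. Across autosomes these medians were 286 ± 26.8 and 263 ± 14.3 bp (mean ± SD, n = 19), a difference smaller than the SD of the desert values. That SD is between autosomes. It does not measure the spread of the differences within autosomes, which was not computed. At 73 bp, the narrowest width in the atlas, lay 97 desert regions (5%, Wilson interval 4.12 to 6.06%), against 4.55% (4.07 to 5.08%) at 100 to 500 kb, and 4.82% of desert regions without the antigen receptor stretches. Over all autosomal regions 3.96% (3.82 to 4.10%) had this width.

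**Figure D3:**
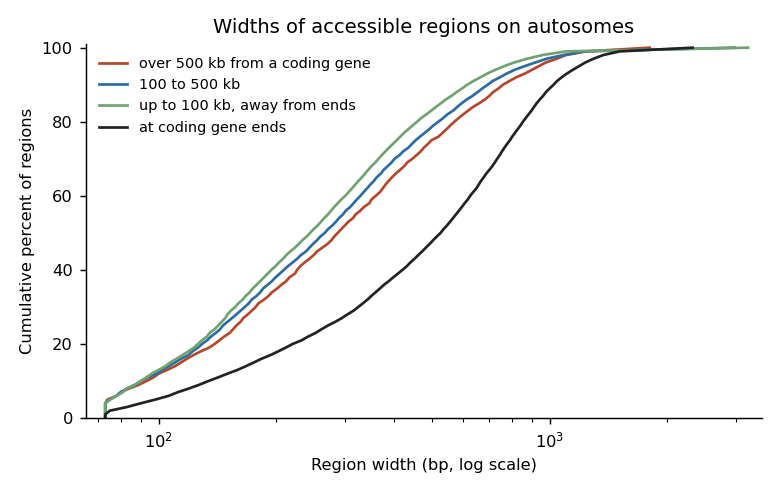
Cumulative percent of autosomal regions (vertical axis) by width in bp (horizontal axis, log scale) for desert regions, intergenic regions at 100 to 500 kb and up to 100 kb from a coding gene, and regions at gene ends. The desert curve lies slightly to the right of the other intergenic curves, with medians of 287, 266 and 244 bp, and the gene end curve far to the right, with a median of 526 bp.

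The widest desert region, of 1802 bp at chr12:62547709-62549510, lay 690 kb from Lrfn5 and 157 kb from the next region of the atlas. Next were regions of 1713 and 1687 bp in the desert between Tenm3 and Aga on chromosome 8, at chr8:52303584-52305296 and chr8:50915313-50916999. The second of these touched the lncRNA gene 1700019L22Rik. A region of 1631 bp lay 1372 kb from Alcam, an adhesion molecule gene, at chr16:53824755-53826385, and one of 1495 bp in the dense Cobl desert at chr11:13615241-13616735. A region of 1492 bp began 196 bp after that of 1713 bp, at chr8:52305493-52306984, 1205 kb from Aga. The other 4 of the 10 widest, of 1393, 1376, 1365 and 1339 bp, had Rapgef2, D3Ertd751e, Nova1 and Nrg3 as their nearest coding genes, 567, 1754, 672 and 624 kb away.

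The 71 desert regions of 1000 bp or more were spread over 53 stretches on all 19 autosomes. The Tenm3 to Aga stretch held 5 of them and the stretches from Celf4 to Pik3c3 and from Lrfn5 to Fscb 3 each. A noncoding gene or pseudogene was touched by 7 of them (9.86%, Wilson interval 4.86 to 18.98%; 6 an lncRNA gene, 1 a pseudogene), against 8.71% of all desert regions. Their median distance to such a gene was 69.6 kb, against 69.0 kb. Another region lay within 1 kb of 6 (8.45%, 3.93 to 17.2%), against 14.5% of all desert regions, and their median gap was 32.6 kb against 27.6 kb. The intervals of both shares include the value over all desert regions.

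Spacing in deserts was wide, with a minority of regions in tight groups. The median gap from a desert region to the nearest region of the atlas was 27.6 kb (95% interval of the median 25.4 to 30.7, quartiles 6.34 and 64.2 kb), and 29.3 kb without the antigen receptor stretches. It was 16.6 kb at 100 to 500 kb from coding genes and 4.86 kb nearer to them. In 17 of 19 autosomes the desert median was above that at 100 to 500 kb. The most isolated region, of 379 bp at chr14:90433034-90433412 between Pcdh20 and Pcdh9, was 478 kb from its nearest neighbour, the largest gap of any autosomal region. Others were 408 kb from a neighbour, in the Got2 to Cdh8 desert, and 403 kb, in the Trim52 to Slitrk1 desert.

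At short range deserts differed less from other intergenic sequence. A neighbour lay within 1 kb of 282 desert regions (14.5%, interval 13.0 to 16.2%), against 17.5% at 100 to 500 kb and 21.5% nearer to genes. A neighbour lay within 10 kb of 30.2% of desert regions, against 40.3% and 67.9%. Without the antigen receptor stretches the desert shares were 14.4% within 1 kb and 29.8% within 10 kb. The mean spacing was 104 kb in deserts and 68.8 kb at 100 to 500 kb. Regions with a neighbour within 1 kb had a median width of 239 bp (interval 225 to 269), and the 1354 with none within 10 kb one of 300.5 bp (286 to 318).

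**Figure D4:**
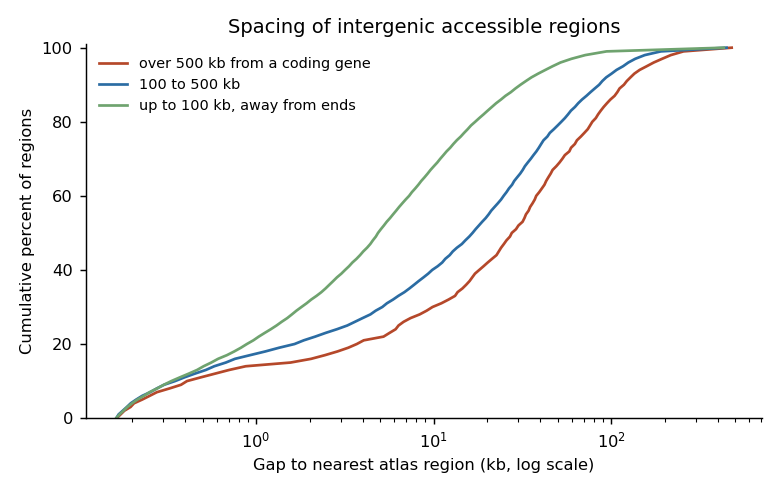
Cumulative percent of intergenic autosomal regions (vertical axis) by the gap to the nearest region of the atlas in kb (horizontal axis, log scale). The 3 curves differ less below 1 kb (21.5, 17.5 and 14.5% of regions) than at 10 kb (67.9, 40.3 and 30.2%), with medians of 4.86 kb up to 100 kb from a coding gene, 16.6 kb at 100 to 500 kb and 27.6 kb in deserts.

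Groups of 3 or more desert regions within 10 kb numbered 40 and held 128 regions (6.60%), 4 of the groups in antigen receptor stretches. Such groups were not counted outside deserts, so whether they are more or less common there cannot be given. Each of 3 groups had 5 regions. The tightest of these spanned 2.39 kb at chr2:46343750-46346141, 1226 kb from Zeb2, with widths of 313, 73, 161, 216 and 149 bp. The second spanned 3.04 kb at chr2:95285781-95288824, 849 kb from Api5, with widths of 195, 214, 433, 131 and 227 bp. The third spanned 3.47 kb at chr1:101103282-101106747, in the Cntnap5b to Cdh20 desert, with widths of 73, 248, 469, 203 and 392 bp. The groups of 4 regions lay in the deserts from Mki67 to Mgmt and from Slitrk5 to Gpc5.

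One of these groups consisted mostly of wide regions. At chr8:52303584-52307418 in the Tenm3 to Aga desert, regions of 1713, 1492 and 268 bp covered 90.6% of 3.84 kb. The nearest noncoding gene there was the pseudogene Gm6463, 24.1 kb away. Of the 128 regions in the 40 groups, 3 were wider than 1000 bp (2.34%, interval 0.800 to 6.66%), this pair and one of 1101 bp between Serpinb8 and Cdh7. The interval includes the 3.66% of all desert regions that were 1000 bp or wider.

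The regions farthest from coding genes lay in 3 deserts. The farthest were regions of 78 and 91 bp at chr18:28015566-28015643 and chr18:28015895-28015985, 2250 kb from Pik3c3 and 251 bp apart, with the lncRNA gene Gm33805 13.8 kb from the latter. In all, 16 regions lay beyond 2000 kb. Of the 10 farthest, 5 lay between Celf4 and Pik3c3, 4 between Olfm4 and Pcdh17, and 1 between Cntnap5b and Cdh20, and their widths ran from 75 to 531 bp. At the limit itself, the members nearest to a coding gene were regions of 420 and 248 bp, 500.5 and 500.7 kb from Tmem132c and Gdi2. The nearest regions left out, of 316, 183 and 417 bp, lay 499.4, 499.3 and 499.3 kb from Irx1, Ipmk and Olfm4.

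Most desert regions lay outside noncoding genes and more than 10 kb from them. A lncRNA gene, pseudogene or small RNA gene was touched by 169 of the 1940 (8.71%, Wilson interval 7.54 to 10.05%), and 321 (16.5%, 14.96 to 18.3%) touched one or lay within 10 kb of it. At 100 to 500 kb from a coding gene these shares were 16.9 and 30.5%. The median distance from a desert region to the nearest of these genes was 69.0 kb (63.1 to 74.3), and 751 regions (38.7%) were more than 100 kb from all of them. Without the antigen receptor stretches, 16.4% touched one or lay within 10 kb and the median distance was 71.2 kb.

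The nearest of these genes was a pseudogene for 1002 regions (51.6%), an lncRNA gene for 632 (32.6%) and a small RNA gene for 306 (15.8%). The median distance was 148 kb to the nearest pseudogene, 277 kb to the nearest lncRNA gene and 493 kb to the nearest small RNA gene. At 100 to 500 kb from coding genes it was 110, 70.4 and 356 kb. The distance to lncRNA genes thus differed the most between the classes. Widths by the type of the nearest gene were similar, with medians of 288 bp for pseudogenes, 297.5 bp for lncRNA genes and 255.5 bp for small RNA genes.

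**Figure D5:**
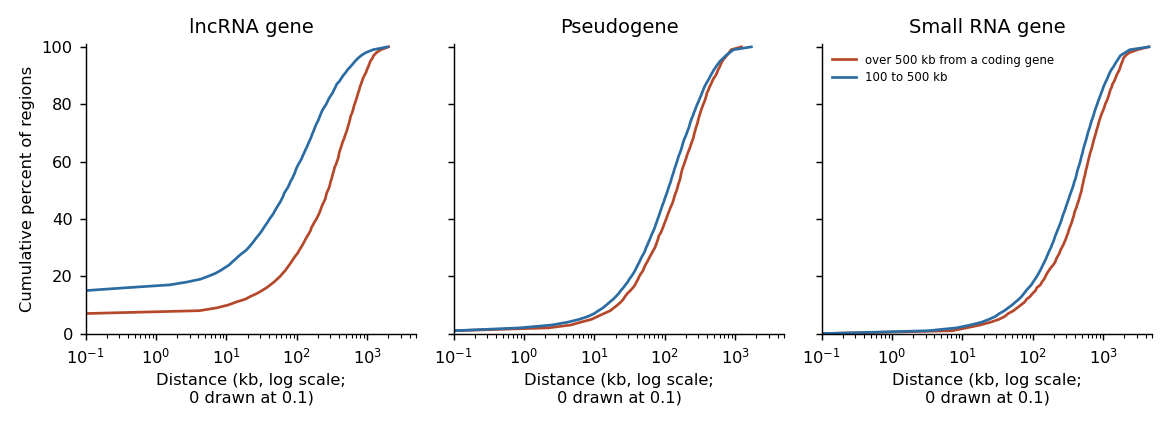
Cumulative percent of regions (vertical axis) by distance in kb (horizontal axes, log scale, touching drawn at 0.1) to the nearest lncRNA gene, pseudogene and small RNA gene, for desert regions and regions at 100 to 500 kb from a coding gene. The curves part most for lncRNA genes, with medians of 277 and 70.4 kb, and less for pseudogenes, with 148 and 110 kb.

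Inside lncRNA genes, desert regions were about as frequent as the length of these genes gives. The middle of a region lay in an lncRNA gene in 134 cases (6.91%, interval 5.86 to 8.12%), and lncRNA genes covered 6.74% of desert sequence. Within 1 kb of an end of an lncRNA gene lay the middle of 21 regions (1.08%, interval 0.709 to 1.65%), against 0.541% of desert sequence, a ratio of 2.00. At 100 to 500 kb the corresponding ratios were 1.18 inside lncRNA genes and 2.40 at their ends. For pseudogenes, 26 region middles (1.34%, 0.916 to 1.96%) faced 0.971% of desert sequence, a ratio of 1.38 on few regions. The 22 regions reaching within 1 kb of an lncRNA gene end had a median width of 344 bp (288 to 450). It was 280 bp (243 to 321) for the 138 touching an lncRNA gene anywhere. These intervals overlap, and the sets share regions. At the minimum width of 73 bp were 13.6% of the 22 and 3.62% of the 138.

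Of 299 lncRNA genes that reach into deserts, 83 (27.8%) were touched by a desert region, and 12 by 3 or more. Touched lncRNA genes were long, with a median of 56.0 kb against 14.9 kb for those not touched, and a longer gene has more room for a region. The most, 16, lay in Gm32647, an lncRNA gene of 1284 kb in the desert beside Tenm4, at 12.5 per Mb, with widths from 76 to 627 bp. Next, 1700019L22Rik (800 kb) held 5 regions, of 344, 75, 73, 143 and 1687 bp. At the other extreme of length, Gm31415 (34.02 kb) held 4 regions of 324, 140, 564 and 256 bp and Gm32810 (39.6 kb) 4 of 144, 399, 258 and 510 bp, giving 118 and 101.04 per Mb. These are genes whose promoter windows are printed above, so 1 of the 4 regions in each lay at an annotated start.

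The other lncRNA genes with 3 or more were 4921515E04Rik and Gm40677 with 4 each, and 1700081B01Rik, 4930474G06Rik, Gm13794, Gm33811, Gm52725 and Rmst with 3 each. Rmst, a conserved lncRNA known from neural development, held regions of 80, 293 and 346 bp at its place between Tmpo and Nedd1. Gm33811, between Stxbp6 and Nova1, held one of 1365 bp, the second widest touching a noncoding gene after that of 1687 bp in 1700019L22Rik. Gm38450, Gm41534, Gm41988 and 4930474G06Rik were touched by regions of 1118, 1099, 1025 and 1008 bp, whose nearest coding genes were Pou3f2, Rgmb, Zfhx4 and Pik3c3 at 800.2, 543, 633 and 1636 kb. Gm33752 was touched by one of 946 bp, 512 kb from Car8.

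Of 465 pseudogenes in deserts, 20 (4.30%) were touched, but pseudogenes are short, with a median of 0.922 kb for those not touched. The 3 that held 3 or more regions were long models. Gm18728, of 429 kb, held 4 regions and Gm3116, of 199 kb, held 3, both between Cntnap5b and Cdh20. Gm46188, of 123 kb between Nmbr and Cited2, held regions of 555, 902 and 1152 bp. Small RNA genes were touched by 6 regions of 73 to 329 bp, namely 4 snoRNA genes (Gm23439, Gm23015, Gm25833 and Gm23437), the rRNA gene n-R5s194 and the microRNA gene Mir7094-2.

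Of 19 microRNA hairpins in deserts, Mir7094-2, in an antigen receptor stretch of chromosome 12, was the only one touched, by a region of 73 bp, and 6 lay within 10 kb of a desert region. The region, chr12:114513565-114513637, met only the edge of the hairpin, chr12:114513635-114513694. One mature product of Mir7094-2, mmu-miR-7094-3p, is also listed for Mir7094-1, a hairpin 4.56 kb from a region. The mature sequences of Mir7094-2 are given because no other microRNA hairpin of the deserts met a region, with the seed (bases 2 to 8) in capitals.
mmu-miR-7094-3p: uACUCUGCuguucucuccaca
mmu-miR-7094b-2-5p: uCUGGAGAggauacagggucuga
The next nearest hairpin, Mir3961 in the Cetn3 to Mef2c desert, lay 3.57 kb from a region of 588 bp.

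Of the 3 stretches with antigen receptor segments, a pair is described here. The stretch from Adam6a to Zfp386 on chromosome 12, with 115 segments, held 36 regions (24.0 per Mb). The stretch from Gm36448 to Dad1 on chromosome 14, with 72 segments, held 24 (34.6 per Mb). These segments encode the variable parts of antibodies and T cell receptors in lymphocytes. The 92 regions of the 3 stretches had a median width of 202.5 bp (95% interval of the median 163 to 236), against 291 bp (280 to 307) in all other deserts, and a median gap of 15.3 kb against 29.3 kb. Of the 92, 1 was 1000 bp or wider (1.09%, interval 0.192 to 5.90%), an interval that includes the 3.66% of all desert regions. Whether the segments themselves bear on these values was not tested.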

How the data were processed

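The authors deposited 1 list of regions, with positions in base pairs and no count, score or other value per library. Per the submitters' processing notes, MACS2 2.1.1 was used with Bowtie2, cutadapt, SAMtools, Picard and bedtools on GRCm38 (mm10). For their parameters, any Tn5 shift and the merging of libraries: not given in the sources used here. Starts were moved by 1 to count from 1.

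Regions were set against RefSeq gene spans of GRCm38.p6 (20560 coding genes, 12324 lncRNA genes, 9226 pseudogenes and 3926 small RNA genes on autosomes). The 328 autosomal genes placed below 3 Mb, where the atlas has no autosomal region, were left out. Distance is the number of bases between region and gene. Density is per Mb of sequence in the same distance band. Intervals are 95% Wilson for shares, exact Poisson for densities and binomial order statistics for medians. Named items followed a rule: widest, farthest, most populated, tightest, and noncoding genes with 3 or more regions. Members and lists were chosen with earlier results of these data known. Distances were checked on simulated data against a direct count (2984 queries, 0 disagreements). Python 3.11.15, numpy 2.4.6, pandas 2.3.3, scipy 1.17.1 and matplotlib 3.10.9 were used. The planned tests between groups were not made. Some items that the rule selects are not reported here.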

Additional observations from a re-analysis of the deposited data

How the results depend on the processing

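No paired analysis was possible because the list is not split by library, which also kept any replicate from being left out. Under 11 alternatives, 62 of 88 recomputed values stayed within the interval of the reported value (for the number of regions, within 1.5 times), and 26 moved outside it. Measuring from the middle of a region, leaving out chromosome 3 and keeping only deserts between 2 coding genes moved none of the 8 values. Measuring from the middle kept the same 1940 regions. Leaving out crowded windows (100 kb with 20 or more regions) moved none either, but 0 desert regions lay in one, so none could be removed. These 8 unmoved values are among the 62. With the limit at 250, 750 and 1000 kb the number of regions was 4297, 1065 and 600, and the share of the autosomal atlas 5.79, 1.44 and 0.809%, by construction. The density was 10.9 per Mb at 250 kb and 9.14 at 1000 kb. The median gap was 24.2 kb at 250 kb. The share touching or within 10 kb of a noncoding gene or pseudogene was 21.3% at 250 kb and 12.5% at 1000 kb, and the median distance to one was 48.2, 76.2 and 83.3 kb at the 3 limits. Without 1350 predicted coding genes the share of the atlas was 3.18%, the density 10.7 per Mb, the median width 273 bp, the median gap 22.2 kb, the share near a noncoding gene or pseudogene 20.7% and the median distance to one 54.7 kb. Without regions of 73 bp the density was 9.15 per Mb, the median width 302 bp, the median gap 30.8 kb and the share at that width 0% by construction. In 2 settings chosen after seeing the data, antigen receptor segments counted as genes gave a share of 2.49%, and keeping gene positions below 3 Mb gave a density of 8.65 per Mb, on a longer span and the same number of regions, 1940. Depth is unknown, so how many weakly accessible desert regions were missed cannot be given.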
